A study of Homo sapiens with 6 samples.

Results

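The proteasome genes were taken from the count table as every gene whose symbol is PSMA, PSMB, PSMC, PSMD, PSME, PSMF or PSMG followed by a number, which gave 48 of the 59050 genes listed. HUES8 cells, a human embryonic stem cell line, were profiled by RNA-seq in 2 libraries at each of 3 stages: undifferentiated cells (PSC), cells after 2 days of endoderm induction (D2) and definitive endoderm (DE). D2 and DE cells had received the TGF-beta family ligand activin A (100 ng/mL), together with the GSK3 inhibitor CHIR99021 for the initial 24 h, after which CHIR99021 was withdrawn, and PSC were kept in mTeSR1 medium on Matrigel. All libraries came from this one line, the DE labels name no day, and nothing in the labels says that the 2 libraries of a stage came from separate cultures, so p-values measure only the spread between these libraries. In bulk RNA, fewer cells expressing a gene and less RNA per cell cannot be told apart.

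The proteasome degrades proteins that carry ubiquitin chains. Its 20S core is a barrel of α rings, which gate the entry, and β rings, which hold the proteolytic sites, and the 19S cap on its ends is made of a base with a ring of ATPases that unfold substrates and a lid that removes ubiquitin. In cells that respond to interferon, the catalytic β subunits can be replaced by inducible ones to form the immunoproteasome, and other caps (the PSME activators) can take the place of the 19S. Pluripotent stem cells are known for high proteasome activity.

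Library depth was 12351684 and 15849872 counts for PSC, 15000970 and 14843365 counts for D2 and 15490713 and 15970973 counts for DE. The 48 genes took between 0.514% and 0.576% of the counts of a library. Levels of a gene are given as CPM scaled by TMM factors, and levels of different genes are compared only as CPM per kb of the deposited gene length, while the sums of marker lists are in CPM. Stages were compared with edgeR's quasi-likelihood test on all 18126 genes that passed its filter on low counts, with Benjamini-Hochberg adjustment over those genes, and a gene was called at an adjusted p under 0.05. Of the 48 genes, 44 passed the filter. The other 4 were *PSMA8*, the α subunit of germ cells, with at most 1 count in a library, *PSMB11*, the β subunit of the thymus, with 0 counts, and the inducible *PSMB9* and *PSMB10*. With 2 libraries against 2, an exact permutation test cannot give a two-sided p below 0.333, so every p-value of a gene here depends on the spread that edgeR estimated across all genes.

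The stage labels held in *FOXA2*, *CXCR4*, *SOX2* and *TBXT*, but not in *TDGF1*. *FOXA2* was at 0.437 and 0.128 CPM in PSC, 29.9 and 29.7 CPM at D2 and 121 and 99.3 CPM in DE, *CXCR4* rose to 473 and 529 CPM in DE, and *SOX2* fell from 151 and 152 CPM in PSC to 26.7 and 29.8 CPM in DE. *TBXT*, a marker of the primitive streak, was at 95.0 and 103 CPM at D2 and at most 1.93 CPM at the other stages. The 4 mesendoderm markers, *TBXT* included, summed to 6.38 and 6.29 CPM in PSC and 834 and 915 CPM at D2. In DE they still summed to 592 and 522 CPM, with *EOMES* at 360 and 327 CPM against 466 and 504 CPM at D2. Among the 6 pluripotent markers *TDGF1* rose instead, from 302 and 339 CPM in PSC to 458 and 484 CPM in DE. Summed, the 6 fell from 1594 and 1794 CPM in PSC to 786 and 817 CPM in DE. Markers of other lineages also moved: *PAX6* was at 148 and 146 CPM, *GATA3* at 100.1 and 84.3 CPM and *ISL1* at 40.7 and 38.6 CPM in DE, against at most 2.18, 0.899 and 0.450 CPM in PSC. The 5 mesoderm markers summed to 148 and 145 CPM in PSC, 209 CPM in both D2 libraries and 53.7 and 56.1 CPM in DE. Among them *KDR* fell from 141 and 139 CPM in PSC to 17.5 and 19.1 CPM in DE. The 3 neuroectoderm markers summed to 726 and 727 CPM in DE with *OTX2* the highest per kb of gene length and *SOX1* at 3 counts or fewer, and the 4 trophoblast or amnion markers to 142 and 124 CPM with *CDX2* at 0 and 0.0642 CPM. The part of other lineages in the changes of the proteasome genes was not tested. Of 5 immune cell markers, *LYZ* was at 0 in every library, *CD3E* had at most 1 count, and the list summed to 1.57 CPM at most.

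The DE libraries differed from each other in these genes. In DE replicate 2, 34 of the 44 tested proteasome genes were higher than in replicate 1, with a median log2 ratio of 0.21, while over all tested genes the median log2 ratio was -0.01. In PSC and at D2 the same count was 18 and 11 of 44, with median log2 ratios of -0.02 and -0.06. The share of counts from mtDNA-encoded genes was 20.9% and 22.8% in DE, 25.8% and 25.7% at D2 and 29.4% and 27.6% in PSC. With these genes removed before the TMM factors were computed, the numbers of members called were 15 higher and 12 lower in DE against PSC, 3 and 14 at D2 and 21 and 8 from D2 to DE, the same numbers as with them. Each library was therefore left out in turn. Of the 27 member calls in DE against PSC, 20 held in every such fit, and 7 were lost in at least 1. At D2 8 of 17 held, and from D2 to DE 21 of 29.

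As a group the proteasome genes changed little in size from PSC to DE, and members of the same particle went in opposite directions. In DE against PSC, 15 of the 44 tested genes rose and 12 fell, next to 35.1% and 32.7% of all tested genes, so the shares of 34.1% and 27.3% were near or below the background. Their median log2 fold change was 0.04, against 0.02 for all genes, and their median absolute log2 fold change was 0.37, against 0.79. When a 2-fold change was also required, 2 rose (*PSMD9* and *PSME4*) and 2 fell (*PSMB8* and *PSMG4*), next to 20.5% and 18.8% of all genes. The split of these calls depended on the scaling, with 20 higher and 12 lower by library size alone and 11 higher and 20 lower with upper quartile factors, which moved the median of all genes by -0.17. Without DE replicate 1 it was 19 higher and 9 lower.

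At D2 most of the movement was downward. Against PSC, 3 genes rose and 14 fell, next to 25.9% and 24.0% of all tested genes, and the median log2 fold change was -0.14 against 0.02. The 3 that rose were *PSMD2*, *PSMD10* and *PSME4*. Only *PSMB8* passed a fold change of 2, with 0 genes higher and 1 lower next to 14.3% and 8.03% of all genes. By library size alone, which moved the median of all genes by 0.11, 5 rose and 8 fell, and without PSC replicate 1 the number that fell was 9. From D2 to DE, 21 rose and 8 fell, next to 30.0% and 29.3%, with a median of 0.18 against -0.02, and 1 rose and 2 fell by at least 2-fold, next to 12.4% and 16.1%. With upper quartile factors this was 15 and 10, with a median of 0.01, and without DE replicate 1 the median was 0.32. The comparisons against PSC share the PSC libraries, and those of DE share the DE libraries, so their values are set side by side only.

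**Figure D1:**
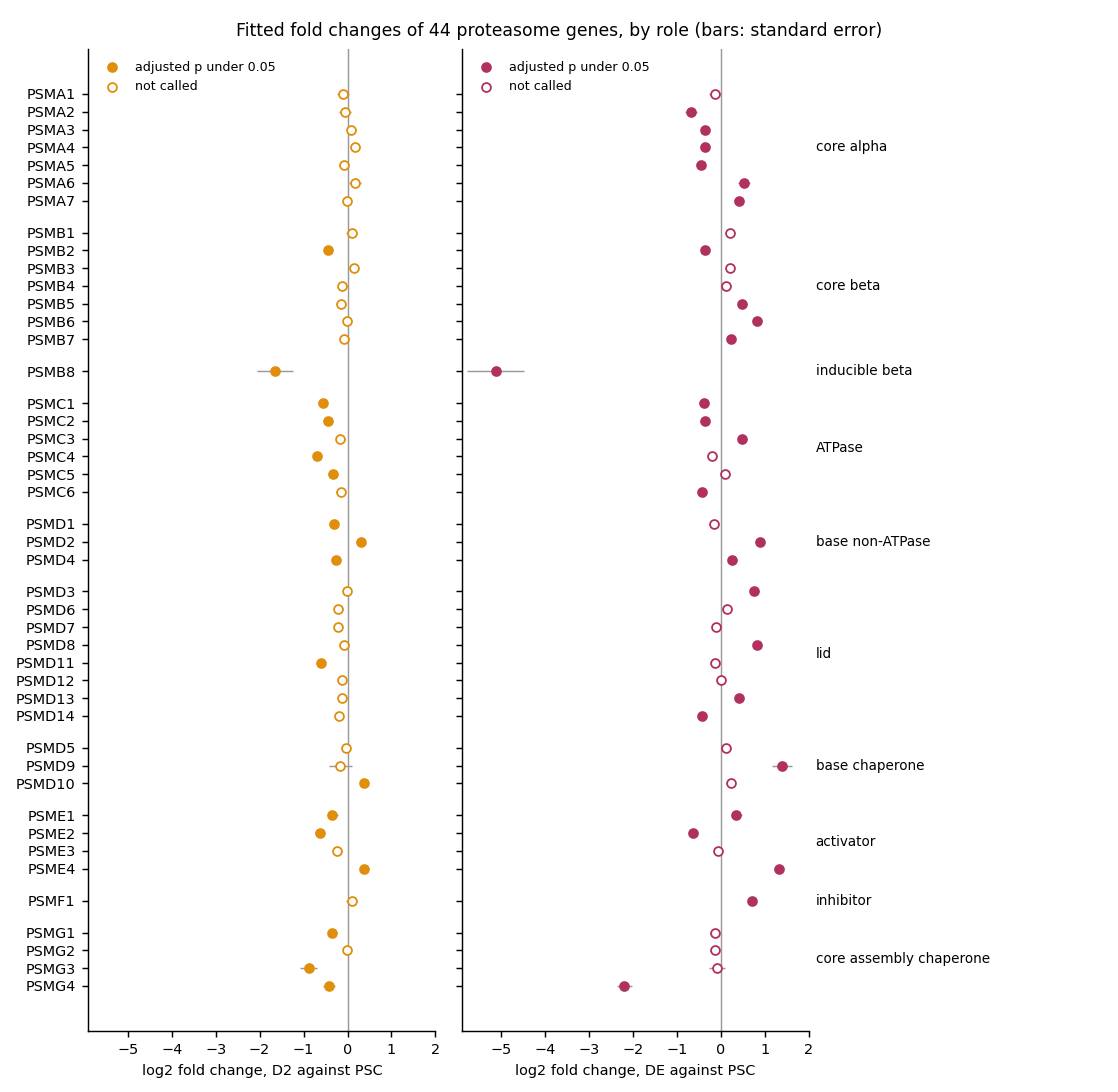
Fitted log2 fold changes of the 44 tested proteasome genes (y axis, grouped by role) at D2 (left) and in DE (right) against PSC (x axis, log2 units), with bars for the standard error, and filled points for an adjusted p under 0.05. At D2, 14 of the 17 filled points lie left of 0, and in DE 15 lie right and 12 left, with *PSMB8* at -5.13 and *PSMG4* at -2.20 farthest to the left.

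Other large protein complexes are given for scale. Of 81 tested cytosolic ribosomal protein genes, 6 rose and 15 fell in DE against PSC and 14 rose and 8 fell at D2, with medians of -0.05 and 0.15. Of 76 tested mitochondrial ribosomal protein genes, 20 rose and 27 fell in DE and 8 rose and 22 fell at D2, with medians of -0.14 and -0.11. In DE against PSC the median absolute log2 fold change was 0.16 for the cytosolic and 0.36 for the mitochondrial set, next to 0.37 for the proteasome genes. Differences between these sets and the proteasome genes were not tested.

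Most α subunits fell in DE after small differences at D2. Of the 7 (*PSMA1* to *PSMA7*), none passed the test at D2 against PSC, with fitted log2 fold changes from -0.10 to 0.18, whereas in DE 2 rose and 4 fell, with a median of -0.36. Of all tested genes, 25.9% rose and 24.0% fell at D2, and 35.1% and 32.7% in DE. *PSMA3* was at 284 and 270.3 CPM in PSC, 307 and 282 CPM at D2 and 198 and 232 CPM in DE. *PSMA4* was at 566 and 520.2 CPM in PSC, 619 and 611 CPM at D2 and 402 and 441 CPM in DE. For both genes the DE libraries lay below all others, and the log2 fold changes in DE against PSC were -0.36 (SE 0.10, edgeR adjusted p = 0.00261) and -0.37 (SE 0.10, edgeR adjusted p = 0.00297). The call of *PSMA4* was lost without PSC replicate 1, at -0.30 and edgeR adjusted p = 0.0577. *PSMA2* had the largest fall, from 15.7 and 18.8 CPM in PSC and 16.0 and 17.1 CPM at D2 to 10.6 and 11.0 CPM in DE (log2 fold change -0.68, SE 0.14, edgeR adjusted p = 0.000121). *PSMA6* went the other way, from 14.0 and 12.8 CPM in PSC and 13.9 and 16.3 CPM at D2 to 19.4 and 19.2 CPM in DE (log2 fold change 0.53, SE 0.13, edgeR adjusted p = 0.00112). *PSMA7* also rose, with 145 and 139 CPM in PSC, 146 and 134 CPM at D2 and 166 and 208 CPM in DE. Its 2 DE libraries were far apart but both above the other 4, and the log2 fold change was 0.40 against PSC (edgeR adjusted p = 0.00138) and 0.42 against D2 (edgeR adjusted p = 0.00116, 0.0517 with upper quartile factors).

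The levels of *PSMA1*, *PSMA2* and *PSMA6* need care. In GENCODE version 44, 67.0%, 100% and 81.4% of the bases of their main transcripts also belong to another protein-coding gene on the same strand, while *PSMA3*, *PSMA4*, *PSMA5* and *PSMA7* share none. Per kb of gene length, these 3 genes were the lowest of the α subunits in PSC, with 8.31 ± 2.18 for *PSMA1*, 3.25 ± 0.414 for *PSMA2* and 2.06 ± 0.125 for *PSMA6* (mean ± SD, n = 2), against 29.9 ± 1.64 for *PSMA5* and 77.6 ± 4.62 to 89.1 ± 3.03 for the other 3. Per kb of main transcript they were still the lowest, at 23.0, 12.0 and 13.1 in that order, but closer to *PSMA5*, at 45.0. How reads on shared bases were counted is not given in the sources used here, and its part in these levels was not tested. *PSMA3* also has an antisense gene, *PSMA3-AS1*, which was counted apart, at 55.7 to 66.4 CPM. Without the 4 members that share over 50% of their main transcript with another gene on the same strand (*PSMB10* is the last), 14 of 41 tested genes rose and 11 fell in DE against PSC, again near or below the background of 35.1% and 32.7%.

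**Figure D2:**
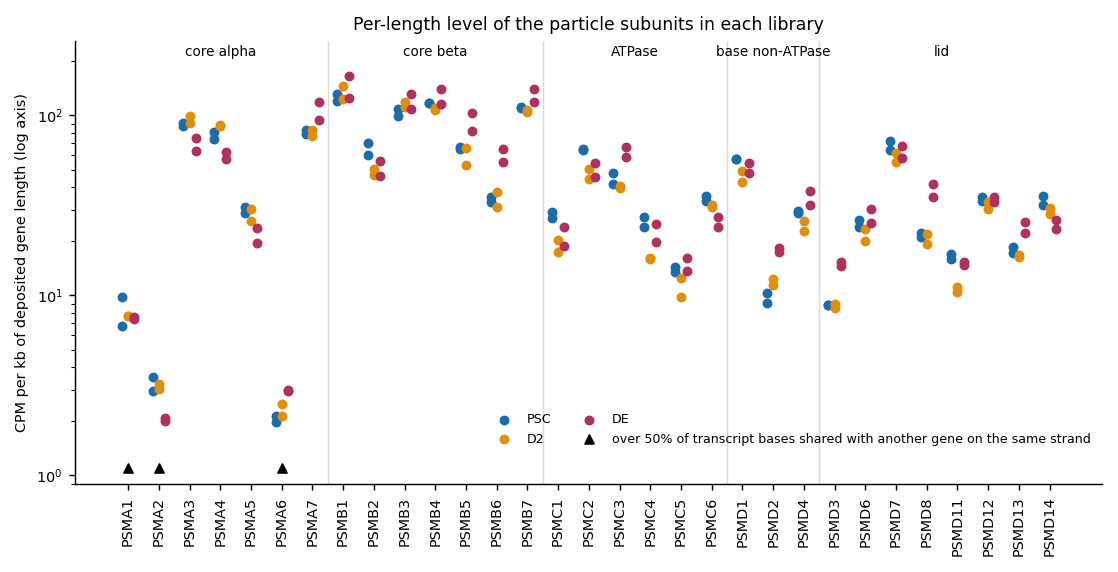
CPM per kb of deposited gene length (y axis, log scale) of the α, β, ATPase, base and lid subunits (x axis) in each of the 6 libraries, colored by stage. Triangles mark genes with over 50% of transcript bases shared with another gene on the same strand, *PSMA1*, *PSMA2* and *PSMA6*, and these have the lowest PSC means of the subunits shown.

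Some constitutive β subunits rose in DE. Of the 7 (*PSMB1* to *PSMB7*), 0 rose and 1 fell at D2 against PSC, and in DE 3 rose and 1 fell, with medians of -0.07 and 0.20. The background was 25.9% higher and 24.0% lower at D2 and 35.1% and 32.7% in DE. The 3 that rose are the genes of the constitutive catalytic subunits. *PSMB6*, the caspase-like subunit, was at 47.7 and 51.1 CPM in PSC, 54.0 and 44.7 CPM at D2 and 79.3 and 94.4 CPM in DE. Both DE libraries stood above the other 4, which overlapped, and the log2 fold change in DE against PSC was 0.81 (SE 0.11, edgeR adjusted p = 1.96e-07), or 1.76-fold. *PSMB5*, the chymotrypsin-like subunit, was at 115 and 118 CPM in PSC, 117 and 93.2 CPM at D2 and 145 and 182 CPM in DE. It too was higher in both DE libraries than in any other (log2 fold change 0.48, SE 0.11, edgeR adjusted p = 0.000384). *PSMB7*, the trypsin-like subunit, was at 199 and 197 CPM in PSC, 191 and 186 CPM at D2 and 212 and 251 CPM in DE. Its stages did not overlap but its log2 fold change of 0.23 (edgeR adjusted p = 0.0453) was close to the threshold. With each library left out in turn it passed only without DE replicate 1, and without DE replicate 2 the log2 fold change was 0.11 (edgeR adjusted p = 0.321). At D2 these 3 genes had log2 fold changes of 0.00 for *PSMB6*, -0.15 for *PSMB5* and -0.07 for *PSMB7*, none past the test. *PSMB2*, a structural subunit, was the one that fell, from 319.8 and 273 CPM in PSC to 228 and 210.2 CPM at D2 and 209 and 253 CPM in DE, with edgeR adjusted p = 0.00133 at D2 and 0.00449 in DE. Both calls were lost without PSC replicate 1, with edgeR adjusted p = 0.0506 and 0.126, and the DE call also without DE replicate 1 (edgeR adjusted p = 0.0946).

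The inducible counterparts of the catalytic subunits were nearly silent in PSC, and the counts of 2 of the 3 were lower still at D2 and in DE. *PSMB8*, which replaces *PSMB5* in the immunoproteasome and lies on chromosome 6 of GRCh38 from 32840717 to 32844679, had 26 and 41 counts in PSC, 12 and 12 at D2 and 0 and 2 in DE. That is 2.27 and 2.63 CPM, then 0.786 and 0.775 CPM, then 0 and 0.128 CPM, with no overlap between any stages. Pooled over the libraries of a stage, PSC was 39.7 times DE (exact 95% interval 10.6 to 335) and 3.18 times D2 (1.97 to 5.30), where the intervals cover counting error only. The edgeR adjusted p was 8.5e-08 in DE and 0.0015 at D2 (0.0598 with DESeq2). *PSMB9*, its neighbor on chromosome 6 from 32844136 to 32859851 and the counterpart of *PSMB6*, had 7 and 9 counts in PSC, 1 and 1 at D2 and 0 and 0 in DE. Counted against a floor of 3 counts over the DE libraries together, it was at least 6.33-fold lower in DE than in PSC. An exact 95% interval of that ratio, which also counts the error of the PSC counts, began at 4.57. PSC was 9.11 times D2 (exact 95% interval 2.14 to 81.6). *PSMB9* was not tested by edgeR, as it did not pass the filter, and the annotations of *PSMB8* and *PSMB9* overlap on opposite strands, with 17.3% of the exon bases of *PSMB8* opposite another gene. *PSMB10*, the counterpart of *PSMB7*, had 5 and 10 counts in PSC, 9 and 16 at D2 and 7 and 6 in DE, and no difference was detectable at this depth, with a ratio of PSC to DE of 1.37 (0.607 to 3.13). *PSMB10* shares 56.1% of its main transcript with another gene on the same strand.

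Set against its constitutive partner per kb of gene length, *PSMB8* made up 1.06% ± 0.0914 of the sum of *PSMB8* and *PSMB5* in PSC, 0.380% ± 0.0565 at D2 and 0.0179% ± 0.0254 in DE (mean ± SD, n = 2 libraries). The share of *PSMB9* with *PSMB6* was 0.521% ± 0.0462 in PSC, 0.0576% ± 0.0072 at D2 and 0% in DE. The share of *PSMB10* with *PSMB7* was 0.299% ± 0.0828, 0.474% ± 0.191 and 0.194% ± 0.0365, which overlapped between PSC and D2. The sizes depended on the length used: by counts, with no division by length, *PSMB8* made up 2.06% in PSC and 0.747% at D2, and *PSMB9* 1.19% and 0.133%. By main transcript length these were 1.92% and 0.694%, and 0.969% and 0.108%. On each of these scales the inducible form was a small minority of each pair at every stage.

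**Figure D3:**
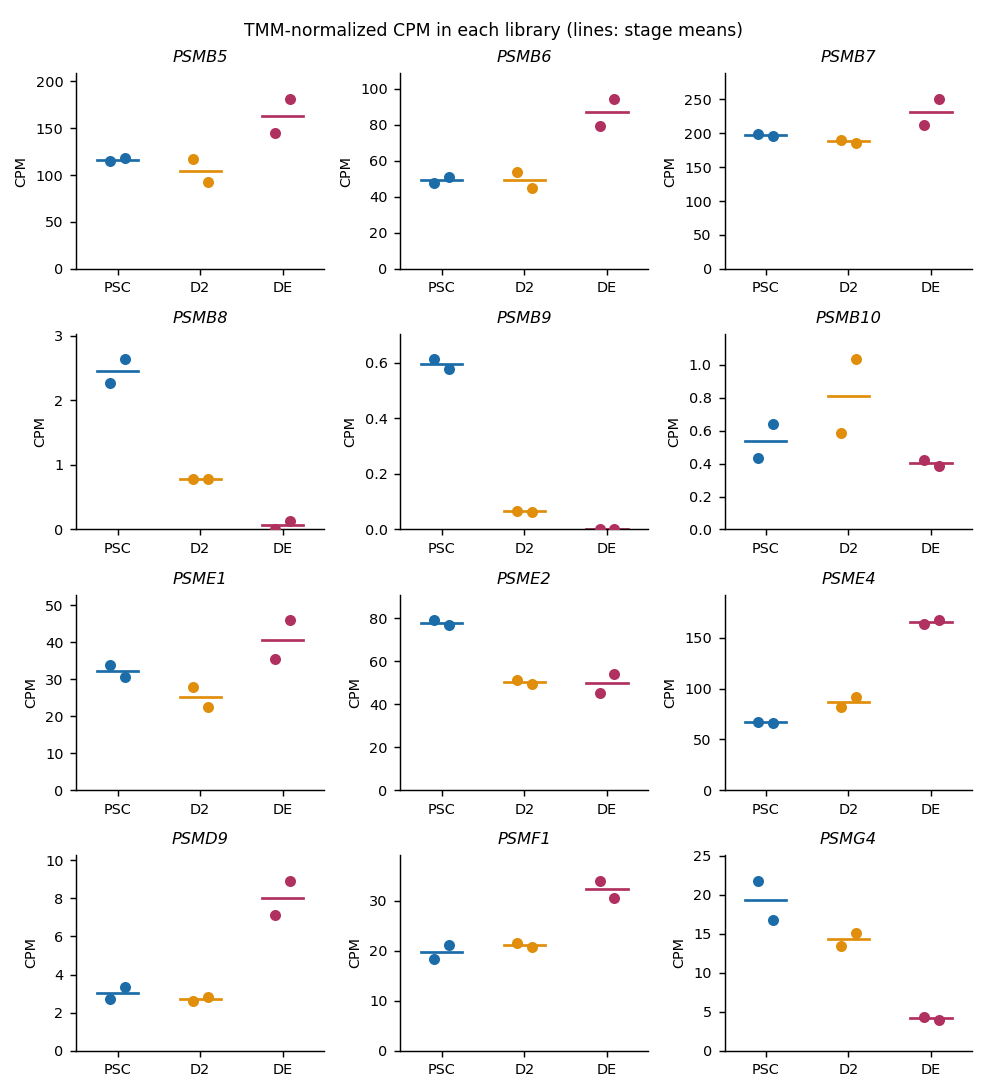
TMM-normalized CPM (y axis, from 0) of 12 proteasome genes in each library by stage (x axis), with a line at the mean of the 2 libraries. *PSMB5*, *PSMB6* and *PSMB7* are highest in DE, *PSMB8* and *PSMB9* step down from PSC to D2 and to DE, and *PSME4* rises from 66.7 CPM in both PSC libraries to 164 and 168 CPM in DE.

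The genes around the immunoproteasome were read from a list of 15 genes of interferon signaling and antigen processing, of which 14 were tested. In DE against PSC 5 rose and 8 fell, next to 35.1% and 32.7% of all tested genes, and at D2 3 rose and 2 fell, next to 25.9% and 24.0%. The transporters that carry peptides to HLA class I were low and fell in DE. *TAP2* was at 3.24 and 3.53 CPM in PSC, 2.49 and 2.13 CPM at D2 and 0.790 and 0.385 CPM in DE (log2 fold change against PSC -2.50, edgeR adjusted p = 1.25e-06). *TAP1* was at 0.437 and 0.899 CPM in PSC and 0.122 and 0.193 CPM in DE (log2 fold change -2.10, edgeR adjusted p = 0.0108, but 0.273 without PSC replicate 2, 0.108 without DE replicate 1 and 0.137 with DESeq2). *TAPBP*, the tapasin that loads peptides, was at 6.82 and 7.13 CPM in PSC, 7.99 and 9.31 CPM at D2 and 4.44 and 3.40 CPM in DE. Of the main transcript of *TAP2*, 35.8% is shared with another gene on the same strand. In *TAP1* and *TAPBP*, 21.5% and 40.5% lie opposite another gene, and the part of shared bases in these values was not tested.

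The 3 IRF transcription factor genes of the list were called lower in DE than in PSC. *IRF2* fell from 3.85 and 3.79 CPM in PSC to 1.90 and 1.87 CPM at D2 and 0.547 and 1.35 CPM in DE (edgeR adjusted p = 1.18e-05 in DE). For *IRF2* at D2 against PSC the edgeR adjusted p was 0.0083, but the DESeq2 adjusted p was 0.122. From D2 to DE these were 0.026 and 0.176. *IRF9*, another factor of interferon signaling, fell from 4.11 and 3.34 CPM in PSC to 0.911 and 1.80 CPM in DE (edgeR adjusted p = 0.000261), and 93.1% of its main transcript is shared with another gene on the same strand. *IRF1*, an inducer of the immunoproteasome genes, was at 1.31 and 1.35 CPM in PSC, 2.1 and 2.13 CPM at D2 and 0.608 and 0.449 CPM in DE (edgeR adjusted p = 0.0115 in DE against PSC, but 0.0579 without PSC replicate 2, 0.0784 without DE replicate 2 and 0.115 with DESeq2). The kinase *JAK2* went the opposite way and rose from 4.02 and 3.72 CPM to 8.06 and 8.01 CPM at D2 and 10.7 and 10.9 CPM in DE. *B2M*, the light chain of HLA class I, was at 123 and 119 CPM in PSC, 233 and 248 CPM at D2 and 108 and 113 CPM in DE.

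Most ATPases of the base fell at D2. Of the 6 (*PSMC1* to *PSMC6*), 4 fell and 0 rose at D2 against PSC, next to 24.0% and 25.9% of all tested genes. Their log2 fold changes ran from -0.68 to -0.15, with a median of -0.39. *PSMC4* fell most, from 57.4 and 65.2 CPM in PSC to 38.5 and 37.9 CPM at D2, and was at 47.4 and 59.4 CPM in DE. The fitted change was -0.68 on the log2 scale at D2 (SE 0.11, edgeR adjusted p = 8.83e-06) and 0.48 from D2 to DE (edgeR adjusted p = 0.000505), and in DE it overlapped with PSC. *PSMC3* differed from the rest, with 94.7 and 109 CPM in PSC, 92.0 and 89.4 CPM at D2 and 134 and 152 CPM in DE, with both D2 libraries below PSC and both DE libraries above it (log2 fold change in DE against PSC 0.49, SE 0.10, edgeR adjusted p = 9.62e-05). *PSMC6* fell from 268 and 252 CPM in PSC through 230.3 and 237 CPM at D2 to 179.7 and 204 CPM in DE (log2 fold change against PSC -0.44, edgeR adjusted p = 0.000317). Of the 4 calls at D2, that of *PSMC5* (log2 fold change -0.33) was lost without PSC replicate 2 and without D2 replicate 2, at edgeR adjusted p = 0.12 and 0.343. In DE against PSC, 1 ATPase gene rose and 3 fell, next to 35.1% and 32.7% of all tested genes. Without DE replicate 1 the falls of *PSMC1* and *PSMC2* were not called, at -0.22 and -0.23 with edgeR adjusted p = 0.0836 and 0.0577. *PSMC1* shares 83.2% of its main transcript with *NRDE2* on the opposite strand, a gene at 14.3 and 14.8 CPM in PSC and 9.24 and 9.25 CPM in DE.

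In the rest of the 19S cap, 5 of the 11 base and lid *PSMD* genes rose and 1 fell in DE against PSC (background 35.1% and 32.7%), while 1 rose and 3 fell at D2 (background 25.9% and 24.0%). *PSMD4*, a ubiquitin receptor of the base, is counted in both, with log2 fold changes of 0.26 in DE and -0.26 at D2. Its calls were lost in 3 of the 6 fits that each left out a library, at edgeR adjusted p of up to 0.292 in DE and 0.354 at D2. *PSMD2*, a scaffold of the base that binds ubiquitin-like domains, rose at both stages, from 44.8 and 51.0 CPM in PSC to 60.9 and 57.0 CPM at D2 and 90.5 and 86.0 CPM in DE, with no overlap between stages. Its log2 fold change was 0.30 at D2 (edgeR adjusted p = 0.0163, but 0.228 without PSC replicate 1, 0.123 without D2 replicate 1 and 0.0709 with DESeq2) and 0.88 in DE (SE 0.10, edgeR adjusted p = 1.01e-08). *PSMD1*, the other large scaffold, was at 297 and 296 CPM in PSC, 255 and 222 CPM at D2 and 249.7 and 281 CPM in DE. Its fall at D2 (log2 fold change -0.31, edgeR adjusted p = 0.0113) was lost without D2 replicate 2, at -0.21 and edgeR adjusted p = 0.221, and without either PSC library. Of the 8 lid genes, 3 rose and 1 fell in DE against PSC, 0 rose and 1 fell at D2, and 5 rose and 1 fell from D2 to DE (background 30.0% and 29.3%). The 1 that fell from D2 to DE was *PSMD14* (log2 fold change -0.25). Its call was lost with a replicate block (edgeR adjusted p = 0.0727) and with DESeq2 (DESeq2 adjusted p = 0.0907). It was also lost without either PSC library, without either D2 library and without DE replicate 1, where the log2 fold change was -0.15. The rise of *PSMD6* from D2 to DE was 0.23 without DE replicate 2 and 0.25 without D2 replicate 2, in place of 0.35, and its call was lost in both fits.

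The lid genes with the clearest changes lay at both ends. *PSMD8* was at 65.8 and 68.9 CPM in PSC, 68.4 and 59.6 CPM at D2 and 110.0 and 129 CPM in DE, where both libraries stood above the other 4 (log2 fold change 0.82, SE 0.10, edgeR adjusted p = 5.33e-08). *PSMD11*, whose product is known to promote proteasome assembly in embryonic stem cells, was at 120.4 and 113 CPM in PSC, 79.0 and 74.3 CPM at D2 and 105 and 108 CPM in DE. It fell at D2 (log2 fold change -0.61, SE 0.09, edgeR adjusted p = 5.26e-06) and rose from D2 to DE by 0.47 (edgeR adjusted p = 0.000102), and in DE it was 0.13 below PSC, which did not pass the test (edgeR adjusted p = 0.212). *PSMD14*, the deubiquitinating enzyme of the lid, went down, from 260.4 and 231 CPM in PSC through 224 and 207 CPM at D2 to 171 and 192 CPM in DE (log2 fold change against PSC -0.44, SE 0.10, edgeR adjusted p = 0.000371). The PSC and D2 libraries of *PSMD14* did not overlap, yet its change at D2 did not pass the test.

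Summed per kb of gene length, the role groups moved by small amounts. The 6 ATPase genes summed to 212 ± 3.82 in PSC, 164 ± 8.19 at D2 and 197 ± 23.2 in DE, and the 11 base and lid *PSMD* genes to 322 ± 8.58, 280.4 ± 21.4 and 345 ± 28.1 (mean ± SD, n = 2). The 7 α genes summed to 291 ± 13.9, 304 ± 14.2 and 270.5 ± 31.6, and the 7 β genes to 624 ± 19.8, 605 ± 41.1 and 726 ± 108. At D2 the ATPase sum was 0.776 of that in PSC and lower in both libraries, while the α sum was 1.04 of that in PSC. In DE the libraries overlapped with PSC in the sums of the α, ATPase and *PSMD* genes. The β sum was 649 and 802 in the DE libraries against 638 and 610.2 in PSC, so that its size rested on DE replicate 2, and without that library its log2 ratio to PSC was 0.06 in place of 0.22. The direction of several sums depended on the scale: by TPM, in which the mtDNA-encoded genes count toward a fixed total, the log2 ratio of DE to PSC was 0.14 for the α genes and 0.14 for the ATPases, against -0.11 and -0.10 here. The log2 ratio of D2 to PSC for the β genes was 0.10 by TPM against -0.05 here. The ATPase and *PSMD* sums at D2 were below PSC on every scale run.

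**Figure D4:**
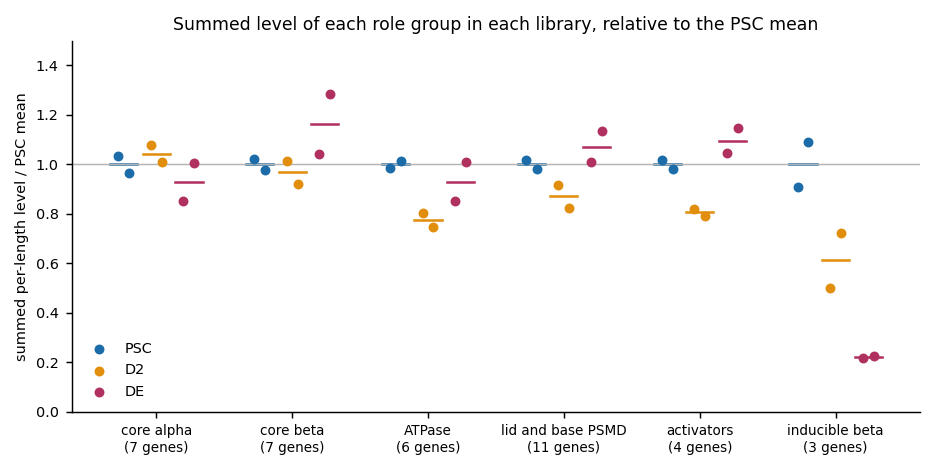
Summed per-length level of each role group in each library, divided by the PSC mean (y axis, from 0), for 6 groups (x axis), with a line at the stage mean. The ATPase and activator sums are lowest at D2, the inducible β sum falls to 0.220 of PSC in DE, and the 2 DE libraries lie apart in the core β sum.

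The 4 activator genes differed in their course. *PSME1* and *PSME2* encode the subunits of PA28αβ, the interferon-inducible cap, and lie near each other on chromosome 14 of GRCh38, from 24136163 to 24138967 and from 24143362 to 24147570. *PSME2* fell from 79.1 and 76.7 CPM in PSC to 51.4 and 49.3 CPM at D2 and 45.1 and 54.3 CPM in DE, so that both later stages lay below PSC and overlapped with each other. Its log2 fold change was -0.63 at D2 (SE 0.10, edgeR adjusted p = 8.61e-06) and -0.65 in DE (SE 0.10, edgeR adjusted p = 2.67e-06). *PSME1* was at 33.8 and 30.5 CPM in PSC, 27.8 and 22.6 CPM at D2 and 35.5 and 46.0 CPM in DE, with D2 lowest and DE highest. It was 0.35 lower at D2 than in PSC (edgeR adjusted p = 0.028) and 0.35 higher in DE (edgeR adjusted p = 0.0162), and both calls rested on single libraries. The D2 call was lost without PSC replicate 1 and without D2 replicate 2, at edgeR adjusted p = 0.164 and 0.308. The DE call was lost without PSC replicate 2, and without DE replicate 2 its log2 fold change was 0.16, at edgeR adjusted p = 0.135 and 0.303. *PSME3*, the nuclear PA28γ, was at 76.6 and 77.2 CPM in PSC, 63.2 and 67.5 CPM at D2 and 80.4 and 66.7 CPM in DE and passed no test.

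*PSME4*, which encodes PA200, a nuclear activator linked to the degradation of acetylated histones, had the second largest rise of all members. It was at 66.7 CPM in both PSC libraries, 82.1 and 91.7 CPM at D2 and 164 and 168 CPM in DE, with no overlap between stages. The log2 fold change in DE against PSC was 1.31 (SE 0.10, edgeR adjusted p = 1.53e-12), or 2.48-fold, and 0.93 from D2 to DE (edgeR adjusted p = 2.11e-09). At D2 it was 0.38 (edgeR adjusted p = 0.00182, and 0.0548 without D2 replicate 2). *PSMF1*, the PI31 protein that inhibits the 20S core in vitro, was at 18.3 and 21.1 CPM in PSC, 21.5 and 20.7 CPM at D2 and 34.0 and 30.6 CPM in DE, where it was 1.63-fold higher than in PSC (log2 fold change 0.71, SE 0.12, edgeR adjusted p = 7.99e-06).

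Of the 3 chaperones that build the base, 1 rose in DE against PSC, near the 35.1% of all tested genes. *PSMD9*, the p27 chaperone of the base, lies on chromosome 12 of GRCh38 from 121888732 to 121918297. It was low in PSC and at D2, at 2.71 and 3.34 CPM and 2.62 and 2.84 CPM, and rose to 7.11 and 8.92 CPM in DE (log2 fold change 1.39, SE 0.22, edgeR adjusted p = 3.06e-06), or 2.61-fold. Of its main transcript, 28.8% is shared with another gene on the same strand. The other base chaperones moved less: *PSMD10*, known as gankyrin, was at 80.1 and 66.1 CPM in PSC, 94.0 and 94.8 CPM at D2 and 86.2 and 83.1 CPM in DE. Its rise at D2 (log2 fold change 0.37, edgeR adjusted p = 0.0029) was lost without PSC replicate 2, at 0.23 and edgeR adjusted p = 0.162.

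Of the 4 chaperones that build the core (*PSMG1* to *PSMG4*), 0 rose and 3 fell at D2 against PSC, and 0 rose and 1 fell in DE, where the background was 25.9% and 24.0% at D2 and 35.1% and 32.7% in DE. The call of *PSMG4* at D2 (log2 fold change -0.42) was lost without PSC replicate 1 and without D2 replicate 1, at edgeR adjusted p = 0.294 and 0.137. *PSMG4*, which works with *PSMG3* in building the α ring, was at 21.8 and 16.8 CPM in PSC, 13.4 and 15.1 CPM at D2 and 4.31 and 3.98 CPM in DE. The stages did not overlap, and the log2 fold change in DE against PSC was -2.20 (SE 0.17, edgeR adjusted p = 4.75e-12), or 4.60-fold lower. *PSMG3* was at 6.73 and 7.19 CPM in PSC, 3.47 and 4.07 CPM at D2 and 6.68 and 6.36 CPM in DE. It fell at D2 by 0.89 on the log2 scale (SE 0.20, edgeR adjusted p = 0.000569) and in DE was back near its PSC level (log2 fold change -0.10, edgeR adjusted p = 0.651). The deposited length of *PSMG4* is 10418 bases, against 785 for its main transcript, and 15.0% of its annotated exon bases lie opposite *SLC22A23* or *TUBB2B*. *SLC22A23* fell as well, from 31.8 and 29.9 CPM in PSC to 15.6 and 14.5 CPM at D2 and 3.77 and 4.56 CPM in DE, and *TUBB2B* rose from 26.8 and 28.5 CPM to 87.0 and 88.5 CPM in DE. The strand setting of the counting is not given in the sources used here, and the part of reads from *SLC22A23* in the values of *PSMG4* was not tested. *PSMG4* shares no base of its main transcript with another gene.

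Promoter sequences were available in RefSeq (GRCh38.p14) for 42 of the 48 members, as windows of 250 bases before to 50 after the start of the gene. The letters of 4 motifs were searched on both strands. The core of the interferon-stimulated response element, a pair of GAAA spaced by any 2 bases, was in 6 of the 42 windows (14.3%) and in 3.65% of 27305 promoters of the same length. The 6 were *PSMA4*, *PSMB4*, *PSMB10*, *PSME1*, *PSME2* and *PSMG4*. TGACNNNGC, the core of the antioxidant response element that NRF1 and NRF2 bind, was in 13 windows (31.0%) against 13.6% of all. Of these, *PSMD3*, *PSMD9*, *PSME1* and *PSME4* were called higher in DE against PSC and *PSME2* lower, next to 35.1% and 32.7% of all tested genes. *PSMB3*, *PSMC4*, *PSMD1*, *PSMD5*, *PSMD12*, *PSMG1* and *PSMG2* were not called there, and *PSMB9* was not tested. CCAAT was in 19 (45.2%) against 35.7%, and the motif of the nuclear respiratory factor 1 in 5 (11.9%) against 6.28%. No matches of different motifs overlapped, and a single match, in *PSMA4*, read the same on both strands. A match is a description of the letters and not a bound site.

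Windows are shown for the 5 members whose interferon-stimulated element lies within them (that of *PSMA4* starts 240 bases before the start, outside), and for the 2 members that rose most in DE, *PSMD9* and *PSME4*. Of the 5, *PSME2* and *PSMG4* fell in DE against PSC, *PSME1* was higher there by a call that single libraries decide, *PSMB4* was not called (log2 fold change 0.12, edgeR adjusted p = 0.308) and *PSMB10* stayed near the limit of detection. The searched promoter of *PSMB8*, the member with the largest fall, held no match to any of the 4 motifs. Each runs 5′ to 3′ on the strand of the gene from 160 bases before to 30 after the RefSeq start, and capitals mark the interferon-stimulated element or TGACNNNGC in either direction and, in *PSMB4*, also the nuclear respiratory factor 1 motif. They lie at chr1:151399413-151399602 on the plus strand for *PSMB4*, chr16:67936821-67937010 on the minus strand for *PSMB10*, chr14:24136034-24136223 on the plus strand for *PSME1*, chr14:24146581-24146770 on the minus strand for *PSME2*, chr6:3258787-3258976 on the plus strand for *PSMG4*, chr12:121888630-121888819 on the plus strand for *PSMD9* and chr2:53970964-53971153 on the minus strand for *PSME4*.
PSMB4: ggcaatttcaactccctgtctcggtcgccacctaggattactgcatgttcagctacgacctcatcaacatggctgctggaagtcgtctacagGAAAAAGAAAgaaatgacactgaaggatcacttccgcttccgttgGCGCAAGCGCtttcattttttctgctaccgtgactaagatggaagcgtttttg
PSMB10: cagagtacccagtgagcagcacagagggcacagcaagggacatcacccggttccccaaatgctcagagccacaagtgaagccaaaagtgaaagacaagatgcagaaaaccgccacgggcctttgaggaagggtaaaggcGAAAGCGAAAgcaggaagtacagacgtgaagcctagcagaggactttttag
PSME1: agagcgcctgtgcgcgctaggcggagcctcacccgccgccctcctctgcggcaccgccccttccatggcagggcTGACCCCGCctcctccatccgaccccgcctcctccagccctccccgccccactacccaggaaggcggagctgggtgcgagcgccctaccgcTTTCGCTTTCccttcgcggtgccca
PSME2: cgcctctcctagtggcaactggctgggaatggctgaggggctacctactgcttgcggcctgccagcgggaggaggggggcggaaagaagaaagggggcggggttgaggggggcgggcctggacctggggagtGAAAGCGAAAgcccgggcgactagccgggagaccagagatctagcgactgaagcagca
PSMG4: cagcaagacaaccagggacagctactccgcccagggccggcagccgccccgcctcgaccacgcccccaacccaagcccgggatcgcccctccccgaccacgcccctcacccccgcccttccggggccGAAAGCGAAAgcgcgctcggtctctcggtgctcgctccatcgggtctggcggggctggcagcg
PSMD9: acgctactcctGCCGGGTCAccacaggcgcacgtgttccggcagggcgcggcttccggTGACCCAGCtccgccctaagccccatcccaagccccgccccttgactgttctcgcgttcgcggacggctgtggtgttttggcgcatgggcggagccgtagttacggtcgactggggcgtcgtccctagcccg
PSME4: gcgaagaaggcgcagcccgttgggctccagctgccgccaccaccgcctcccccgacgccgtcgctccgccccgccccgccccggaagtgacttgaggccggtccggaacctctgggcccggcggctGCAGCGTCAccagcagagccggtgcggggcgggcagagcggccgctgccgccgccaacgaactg
In *PSMB10*, *PSME2* and *PSMG4* the matched letters were the same, GAAAGCGAAA, starting 21, 28 and 33 bases before the start, and in *PSME1* they read in the other direction from base 6 after it. In *PSMB4* they were GAAAAAGAAA, starting 68 bases before the start. *PSME2* and *PSMG4* were lower in DE than in PSC, and *PSMB10* had 5 to 16 counts per library.

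The genes that act with the proteasome were read from a list of 23, all of which were tested. In DE against PSC 12 rose and 6 fell, beside a background of 35.1% and 32.7%. At D2 5 rose and 7 fell (background 25.9% and 24.0%), and from D2 to DE 14 rose and 5 fell (30.0% and 29.3%). Among subunits and assembly factors with other names, *ADRM1*, a ubiquitin receptor of the base, was at 26.6 and 32.4 CPM in PSC, 30.0 and 29.8 CPM at D2 and 46.4 and 45.4 CPM in DE (log2 fold change against PSC 0.63, SE 0.11, edgeR adjusted p = 1.28e-05). *SEM1*, the small lid subunit, was at 131 and 137 CPM in PSC, 172 CPM in both D2 libraries and 172 and 193 CPM in DE (log2 fold change against PSC 0.45, SE 0.10, edgeR adjusted p = 0.000189). *POMP*, the chaperone of core maturation, was at 158 and 136 CPM in PSC, 203 and 184 CPM at D2 and 157 and 188 CPM in DE. Its rise at D2 (log2 fold change 0.40, edgeR adjusted p = 0.00232) was lost without PSC replicate 2 (edgeR adjusted p = 0.0879), and in DE its level overlapped with PSC (edgeR adjusted p = 0.0527).

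The transcription factors that drive proteasome genes went in opposite directions. *NFE2L2*, which encodes NRF2, rose from 34.8 and 32.2 CPM in PSC and 47.1 and 40.3 CPM at D2 to 156 and 183 CPM in DE (log2 fold change against PSC 2.34, SE 0.11, edgeR adjusted p = 6.61e-17), or 5.08-fold. *NFE2L1*, which encodes NRF1, the factor that restores proteasome genes when the proteasome is inhibited, was at 59.0 and 55.5 CPM in PSC, 69.5 and 65.6 CPM at D2 and 41.9 and 33.9 CPM in DE. Both DE libraries lay below the other 4 (log2 fold change in DE -0.59, SE 0.11, edgeR adjusted p = 2.12e-05). The genes for the processing of NRF1 were mixed. *DDI2*, the protease that cleaves it, was at 26.6 and 26.1 CPM in PSC and 18.3 and 15.1 CPM in DE, and *NGLY1*, which removes its glycans, at 24.2 and 22.0 CPM and 27.3 and 31.5 CPM. *DDI2* and *NGLY1* were called lower and higher in DE, with edgeR adjusted p = 4.53e-05 and 0.0123. The call of *NGLY1* was lost without PSC replicate 2 and without DE replicate 2, at edgeR adjusted p = 0.131 and 0.102.

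Several factors that bring substrates to the proteasome rose in DE. *VCP*, the ATPase that extracts ubiquitinated proteins from complexes, went from 79.8 and 91.2 CPM in PSC and 97.8 and 100.4 CPM at D2 to 203 and 209 CPM in DE (log2 fold change against PSC 1.26, SE 0.10, edgeR adjusted p = 3.75e-12). Of the shuttle genes *RAD23B*, *UBQLN1*, *UBQLN2* and *UBQLN4*, *UBQLN2* did not pass the test in DE against PSC, at 13.0 and 14.5 CPM and 14.2 and 13.8 CPM, and the other 3 were called higher. The call of *RAD23B* (log2 fold change 0.25) was lost without PSC replicate 1 and without PSC replicate 2, at edgeR adjusted p = 0.094 and 0.0955. *ECPAS*, which holds the core and the 19S cap together, had the largest fall of the list, from 142 and 157 CPM in PSC to 73.3 and 76.6 CPM at D2 and 49.3 and 53.0 CPM in DE. The stages did not overlap, and its log2 fold change was -0.99 at D2 (SE 0.10, edgeR adjusted p = 1.16e-09) and -1.54 in DE (SE 0.10, edgeR adjusted p = 6.16e-14), or 2.92-fold lower.

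By level per kb of gene length, the order of the members was similar at the 3 stages. *PSMB1* was highest at each, with 126 ± 7.84 in PSC, 134 ± 15.1 at D2 and 145 ± 28.9 in DE (mean ± SD, n = 2), and *PSMB4* was next in PSC at 118 ± 0.0539, below both libraries of *PSMB1*. In each stage *PSMB1*, *PSMB3*, *PSMB4* and *PSMB7* held the first 4 places of the 46 members with over 3 counts in at least 1 library, and the inducible β genes were among the last 4 together with *PSMD9* or *PSMG4*. These places depended on the length used. Per kb of main transcript *PSMA3* replaced *PSMB3* in the first 4 at each stage, at 290 against 160 in PSC. In DE *PSMD9*, at 2.94, then replaced *PSMG4*, at 5.28, in the last 4. *PSMB6* moved from place 16 in PSC to 11 in DE, *PSMA5* from 20 to 27 and *PSMC3* from 13 to 8. Pseudogenes of the family drew few reads: of 32 listed, 19 had no count in any library, and together they held at most 0.177% of the counts of the members in a library.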

How the data were processed

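The authors aligned the reads to hg38 with HISAT2 2.1.1 and deposited featureCounts read counts per gene with a gene length. The gene annotation, the strand setting and the treatment of reads that map to several places are not given in the sources used here. The deposited counts were whole numbers, without normalization, for 59050 genes, of which 21221 had no count. No columns of the authors' own comparisons were used.

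Counts of all 6 libraries were fitted together with edgeR 4.0.16 (R 4.3.3) by its quasi-likelihood test with TMM factors (0.926 to 1.06), its default filter on low counts and Benjamini-Hochberg adjustment over 18126 genes. The fit had 3 residual degrees of freedom. Tested on simulated counts, it called 199 of 200 genes changed by 2-fold and 10 of 17926 unchanged genes in the simulated comparison of DE with PSC. The simulation gave every gene the same spread (coefficient of variation 0.0734) and changed no genes of low level. It therefore does not cover smaller changes or genes with few counts. In the data the DE libraries differed more from each other (chi-square per degree of freedom 5.26) than those of PSC and D2 (2.75 and 2.72). Alternatives used DESeq2 1.42.0, other factors and filters, a replicate block, each library left out, and a 2-fold rule on TPM. Levels per kb used the deposited lengths, and exon overlaps came from GENCODE version 44 on GRCh38. Python 3.11.15 with pandas 2.3.3, scipy 1.17.1 and matplotlib 3.10.9 did the rest.

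The members and lists were chosen with earlier results of these data known. Values were given for the catalytic and inducible β subunits, for members changed by at least 2-fold, and in each role group and comparison for the called member with the largest rise and fall among those whose stages did not overlap. The other genes named were chosen after their values were seen, among them *PSMA3*, *PSMA4*, *PSME1*, *PSME3*, *DDI2* and *NGLY1*. Intervals cover counting error only, at the 95% level. Some genes of the lists are counted but not reported here by name.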

Additional observations from a re-analysis of the deposited data

How the results depend on the processing

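With 2 libraries per stage and 3 residual degrees of freedom, small changes depended on the settings, and the cause was not tested. Library size alone gave member medians (log2) of 0.13 in DE and -0.027 at D2 against PSC, with 5 higher and 8 lower at D2, and upper quartile factors gave -0.13 in DE against PSC, with 20 lower, and 0.011 in DE against D2. DESeq2 called 9 lower at D2. A fold change of at least 2 left 2 higher and 2 lower in DE against PSC, 0 and 1 at D2, and 1 and 2 in DE against D2. The 2-fold rule on TPM gave 5 and 1, 0 and 0, and 1 and 1, with a pseudocount of 1 it gave 4 and 1, 0 and 0, and 0 and 1, and with no TPM limit 6 and 3, 0 and 2, and 2 and 2. With each library left out, the medians ran from -0.04 to 0.05, -0.17 to -0.10 and 0.16 to 0.32, the numbers higher from 12 to 19, 2 to 3 and 17 to 24, and the numbers lower from 9 to 13, 9 to 16 and 5 to 8. Same-numbered libraries did not deviate together (correlations -0.0109, -0.0384 and -0.0433), so the numbers were not taken as pairs. With a replicate block, 13 rose and 12 fell in DE against PSC, 3 and 12 at D2, and 20 and 7 in DE against D2, with medians of 0.04, -0.13 and 0.18.

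Reversals were near 0: *ADRM1* at D2 (RLE factors -0.00437, no filter -0.00729, DESeq2 -3.55e-05, without PSC replicate 1 -0.12), *PSMB5* at D2 with each library left out (-0.32 to 0.0055), *PSMB6* at D2 (library size 0.10, at least 10 counts 0.031, both stages alone 0.0073, each library left out -0.14 to 0.13), *PSMB7* at D2 by library size (0.037), and *SEM1* in DE against D2 by upper quartile factors (-0.091). By counts and by main transcript length the share of *PSMB8* was 2.06% and 1.92% in PSC and 0.747% and 0.694% at D2, and that of *PSMB9* 1.19% and 0.969%, then 0.133% and 0.108%. Main transcript length was chosen after seeing the data.

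The log2 ratios of summed levels at D2 by TPM and by library size were 0.21 and 0.17 for α, 0.10 and 0.065 for β, -0.22 and -0.26 for ATPase, -0.055 and -0.090 for base and lid, and -0.16 and -0.20 for activators (-0.43 by main transcript length). In DE by TPM they were 0.14 for α, 0.46 for β, 0.14 for ATPase, 0.35 for base and lid (0.19 by library size) and 0.38 for activators (0.22 by library size, -0.13 by main transcript length). With each library left out, β in DE ran from 0.057 to 0.36 and ATPase from -0.23 to 0.012. Of 1246 alternative values for single genes, 1167 kept their direction and side of the threshold, 56 lost the call, 11 gained one and 12 reversed.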
